A study of Mus musculus with 12 samples.

Results

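The postsynaptic density scaffold genes examined here were Dlg4, Dlgap1, Shank1, Shank2, Shank3, Homer1, Homer2 and Homer3. These 8 genes were chosen by name for their function, and all 8 were found among the 21887 protein-coding genes of the RefSeq GRCm38.p6 table. For each gene, every called peak of pan-lysine-crotonylation (pan-Kcr) chromatin immunoprecipitation sequencing (ChIP-seq) was collected that touched the gene body or the 5 kb on either side of it by at least 1 bp, a stretch called the window. The peaks came from dorsal hippocampus of C57BL/6J mice. One library (learning) was made from mice trained in spatial object recognition, in which a mouse explores objects at set places, and the other (homecage) from mice left in their home cage. Both used the same antibody against crotonylated lysine, on crosslinked chromatin sonicated to fragments of 200 to 500 bp. Age, sex, the number of animals in a library and the time between training and dissection are not given in the sources used here.

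Each condition had 1 antibody library, so every contrast of learning with homecage lacks a replicate check and no p-value is given. Each list holds peak positions only, with no heights or read counts, and read depth is unknown for either library. On the assembled chromosomes there were 16002 learning and 331236 homecage peaks, 20.7 times as many. A gene without a learning peak is therefore a gene at which none was called, and not a gene shown to lack crotonylation. Expression was not measured in these files, so the labelled tissue was not checked against marker genes.

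The postsynaptic density is the protein-rich layer under the membrane of excitatory synapses that holds glutamate receptors opposite the site of glutamate release. Its scaffold proteins are stacked: PSD-95 (encoded by Dlg4) binds receptors at the membrane, GKAP/SAPAP1 (Dlgap1) links PSD-95 to the deeper SHANK proteins (Shank1, Shank2, Shank3), and HOMER proteins (Homer1, Homer2, Homer3) tie SHANK to group I metabotropic glutamate receptors and to calcium stores. Lysine crotonylation is an acyl modification of lysine that, on histones, is known from active promoters and enhancers.

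Learning peaks were fewer than homecage peaks at these genes, as in the whole lists. The 8 windows held 9 learning peaks and 242 homecage peaks over 1.75 Mb. That made 26.9 homecage peaks per learning peak, or 16.5 without Dlgap1. The ratio was 20.7 over the whole lists and 16.0 over the windows of all protein-coding genes. A learning peak lay in the window of 6 of the 8 genes (75%, 95% exact binomial interval 34.9 to 96.8%), against 30.9% of all protein-coding genes. A homecage peak lay in the window of 8 of 8, against 90.5% of all protein-coding genes. Long genes are more likely to hold a peak: 23.0% of the genes with a window under 50 kb had a learning peak, 46.7% of those with 50 to 200 kb and 75.8% of those over 200 kb. In these 3 classes, a learning peak was found at 2 of 2 members (Dlg4 and Homer3), at 2 of 4 (Shank1 and Homer2, with none at Homer1 and Shank3) and at 2 of 2 (Shank2 and Dlgap1). Since 6 of the 8 windows were longer than 50 kb, the 75% is not to be read against the 30.9% alone.

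A learning peak that overlapped a homecage peak was present at 4 of the 8 genes, Dlg4, Dlgap1, Shank1 and Shank2, against 18.4% of all protein-coding genes. The 18.4% was not split by window length, and the windows of Dlgap1 and Shank2 were 862 and 458 kb long. The 2 shares are therefore not to be compared alone. Overlap was found for 5 of the 9 learning peaks (55.6%, 95% interval 21.2 to 86.3%). The share over all learning peaks was 43.1%, inside that interval. In the other direction, the share was 5 of 242 (2.07%, 0.674 to 4.76%). Homecage peaks covered 5.55% of the bases of the windows. That is a share of bases and not of peaks that overlap by at least 1 bp, so it is not a chance level for the 55.6%. The intervals treat peaks as independent and cover counting error only. If the overlap had to reach 50% of the width of each peak, 1 learning peak was shared, and among peaks of at least 500 bp, 0.

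**Figure D1:**
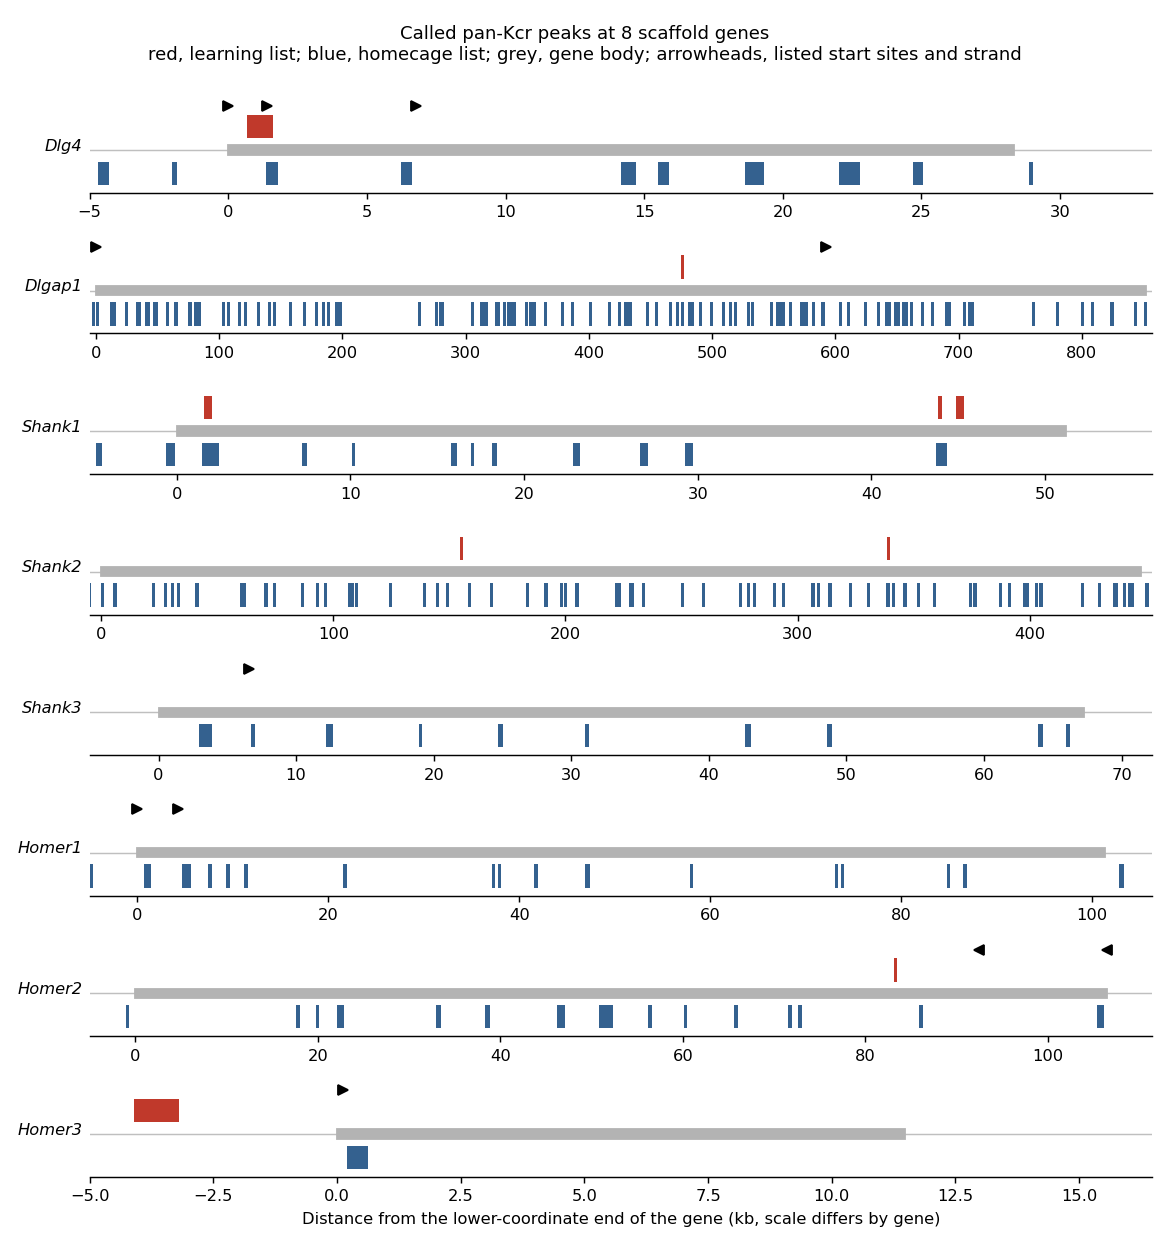
Maps of the 8 genes, each on its own scale, with distance in kb from the lower-coordinate end of the gene on the horizontal axis; red boxes are learning peaks, blue boxes homecage peaks, the grey bar is the gene body and arrowheads are start sites from the promoter table with their strand. Peaks too narrow to see are drawn wider than to scale. A reader should see 9 red boxes among 242 blue ones, none of them at Homer1 or Shank3, and 1 of them outside the gene it is listed for, at Homer3.

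Dlg4 encodes PSD-95, a major membrane-associated scaffold of excitatory synapses. The gene lies at chr11:70017203-70045535 (28.3 kb, plus strand). Its single learning peak, chr11:70017869-70018803, was 935 bp wide, and 2.17% of all learning peaks were at least that wide. It lay inside the gene, 666 bp from the first listed start site, and covered the second. A homecage peak of 435 bp, chr11:70018548-70018982, covered that second start site too, and the lists had 256 bp in common there, 27.4% of the learning peak. The learning peak thus reached further to the upstream side of this start site, and the homecage peak further into the gene. The promoter window of the second start site (RefSeq GRCm38.p6, chr11:70018355-70018654, plus strand, 250 bases before the start and 50 after) is shown because all 300 of its bases lay in the learning peak. Capitals mark the 107 bases that also lay in the homecage peak.
Dlg4 start 2: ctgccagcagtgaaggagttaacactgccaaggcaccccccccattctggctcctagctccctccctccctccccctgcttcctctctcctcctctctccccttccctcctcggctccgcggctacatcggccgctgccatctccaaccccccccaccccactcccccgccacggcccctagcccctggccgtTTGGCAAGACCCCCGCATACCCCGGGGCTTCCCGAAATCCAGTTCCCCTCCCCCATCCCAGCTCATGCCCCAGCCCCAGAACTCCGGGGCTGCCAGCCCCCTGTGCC

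At the third listed start site of Dlg4, a homecage peak of 376 bp (chr11:70023442-70023817) ended 165 bp before the start and no learning peak lay within 5 kb. The promoter window there (chr11:70023732-70024031, plus strand, RefSeq GRCm38.p6) is shown as the other of the 2 listed promoters of these genes that a homecage peak entered. Capitals mark the 86 bases inside that peak, which are the bases farthest from the start.
Dlg4 start 3: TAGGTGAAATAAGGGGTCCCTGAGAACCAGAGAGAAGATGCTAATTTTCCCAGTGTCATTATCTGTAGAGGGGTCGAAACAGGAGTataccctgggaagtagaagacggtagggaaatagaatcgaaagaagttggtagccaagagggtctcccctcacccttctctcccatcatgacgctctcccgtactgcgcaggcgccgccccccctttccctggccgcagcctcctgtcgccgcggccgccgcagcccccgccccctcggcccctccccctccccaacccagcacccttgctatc

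The base composition of these 2 windows differed from that of the first. G and C made up 69.0% of the second window and 60.0% of the third, against 46.3% of the first, which no peak entered. Over the 21263 start sites of protein-coding genes in the promoter table, the median was 67.7% in the windows with a learning peak, 62.3% in those with a homecage peak and 55.0% in those with neither. Peaks in GC-rich windows were thus not particular to Dlg4. Among the other members, the windows at the first start of Homer2 (82.3%), at Shank3 (81.0%) and at Homer3 (69.7%) were richer in G and C. No peak of either list entered these windows, so GC content did not mark out the entered windows among the 8 genes. The remaining homecage peaks of Dlg4 were spread over the gene and its flanks. The window held 10 in all, from 147 to 736 bp wide, of which 7 lay in the gene body. The widest, chr11:70039240-70039975, lay 5560 bp from the 3' end. A peak of 147 bp, the smallest width in the homecage list, lay 554 bp past that end. The pair of homecage peaks in the upstream flank, 406 and 198 bp wide, lay on the neighbouring gene Acadvl, an enzyme of fatty acid oxidation.

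Dlgap1 encodes the guanylate kinase-associated protein that joins PSD-95 to SHANK. At 852 kb (chr17:69969073-70821413, plus strand) it is the longest of the 8 genes, and it held 110 of the 242 homecage peaks but 1 learning peak. The learning peak, chr17:70443621-70444055, was 435 bp wide and lay deep in the gene, 55.7% of the way along it and 117692 bp before the second listed start site. It overlapped a homecage peak of 174 bp by 153 bp. The homecage peaks were 147 to 1006 bp wide, with a median of 332.5 bp, and 11 of them had the smallest width of the list. One of 835 bp began 190 bp after the first start site, chr17:69969263-69970097, where no learning peak was called within 5 kb. The widest, 1006 bp at chr17:70026121-70027126, lay 57048 bp from the same end. Between chr17:70166912 and 70230048, a stretch of 63137 bp held no homecage peak, against a median distance of 5372 bp between neighbouring homecage peaks of this gene. Along the gene in 5 equal stretches from the 5' end, there were 28, 19, 21, 28 and 13 homecage peaks.

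The 3 Shank genes encode the large scaffolds of the deeper layer of the density, and they differed in their learning peaks. Shank1 (chr7:44308916-44360094, 51.2 kb) had 3, Shank2 (chr7:143978077-144426043, 448 kb) had 2, and Shank3 (chr15:89493013-89560261, 67.2 kb) had none. Homecage peaks numbered 12, 67 and 10. The Poisson intervals of the learning densities of Shank1 and Shank3 overlapped (10.1 to 143 and 0 to 47.8 peaks per Mb).

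At Shank1, the first learning peak, chr7:44310469-44310966, was 498 bp wide and lay 1553 bp inside the lower-coordinate end. It was contained whole in a homecage peak of 964 bp (chr7:44310404-44311367), the widest of this gene. The second, chr7:44352771-44352985, was 215 bp wide and lay whole in a homecage peak of 667 bp. The third, chr7:44353792-44354263, was 472 bp wide and had no homecage partner, the nearest being the same 667 bp peak at a distance of 518 bp. These last 2 learning peaks lay 85.9% and 88.1% of the way along the gene. A homecage peak of 523 bp lay 93 bp outside the lower-coordinate end. The longest stretch between neighbouring homecage peaks of Shank1, 13972 bp, ended at the 667 bp peak.

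At Shank2, both learning peaks were narrow, and 72.7% and 77.8% of the learning list was at least as wide. One of 211 bp, chr7:144132760-144132970, had no homecage peak within 3080 bp. The other, chr7:144316489-144316680 and 192 bp wide, lay whole within a homecage peak of 806 bp, chr7:144316412-144317217. The 67 homecage peaks were 147 to 1214 bp wide, with a median of 410 bp, and 24 of them were at least 500 bp wide. One of 450 bp lay across the lower-coordinate end of the gene, and the widest (chr7:144211019-144212232) lay 52.1% of the way along it. Along the gene in 5 equal stretches from the lower-coordinate end, there were 11, 11, 12, 14 and 16 homecage peaks. Of the homecage peaks in the window, 9 also lay on long noncoding RNA genes that overlap or adjoin Shank2, and positions alone do not tell these genes apart. This limit was not particular to Shank2. Another annotated gene also held 9 homecage peaks of the Dlgap1 window, 2 of Dlg4, 2 of Shank3 and 1 of Shank1, which made 23 of the 242 with those of Shank2.

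Shank3, which binds GKAP and HOMER and whose human counterpart is mutated in Phelan-McDermid syndrome, had no learning peak in its window. The nearest learning peaks lay 120 kb below and 663 kb above the gene. The 10 homecage peaks were all inside the gene and 147 to 975 bp wide. The widest, chr15:89495924-89496898, lay 2710 bp before the one listed start site, and a peak of 279 bp, chr15:89499756-89500034, began 148 bp after that start. A peak of 331 bp lay 967 bp before the higher-coordinate end.

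The Homer genes encode adaptors with a domain that binds proline-rich stretches of SHANK and of metabotropic glutamate receptors. The long forms assemble through coiled coils, and the short Homer1a form, which lacks them, is induced by neuronal activity. No learning peak was called at Homer1 (chr13:93303757-93405129, 101 kb, plus strand), and the nearest lay 158 kb below and 94.1 kb above it. Its window held 17 homecage peaks, 147 to 929 bp wide. A peak of 731 bp (chr13:93304478-93305208) began 721 bp after the first listed start site, and the widest, 929 bp at chr13:93308431-93309359, began 397 bp after the second. The promoter window of the first start site (chr13:93303507-93303806, plus strand, RefSeq GRCm38.p6) is shown because Homer1 is the activity-induced member of the family and its homecage peak began 671 bases past this window. Capitals mark TGACG, the half-site of the cyclic AMP response element, searched on both strands.
Homer1 start 1: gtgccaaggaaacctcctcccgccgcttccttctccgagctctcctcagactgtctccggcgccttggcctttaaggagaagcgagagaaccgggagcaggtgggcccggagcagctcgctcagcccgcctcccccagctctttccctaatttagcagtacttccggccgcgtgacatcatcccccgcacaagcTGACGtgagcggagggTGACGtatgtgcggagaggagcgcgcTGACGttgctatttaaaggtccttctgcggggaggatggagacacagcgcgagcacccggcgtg

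This window held 3 matches, all on the strand shown, and 23.6% of the promoter windows of protein-coding genes held at least 1. Of the 11 promoter windows of the 8 genes, 2 held a match, the other being the one at the third start of Dlg4. The full element TGACGTCA was in none of the 11 and in 2.23% of all windows. A match is a description of the letters and not evidence of binding.

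Homer2 (chr7:81600481-81706925, 106 kb, minus strand) had 1 learning peak of 368 bp, chr7:81683556-81683923. It lay inside the gene, 9042 bp past the second listed start site in the direction of transcription, with the nearest homecage peak, of 147 bp, 2460 bp away. The 15 homecage peaks of Homer2 ranged from 147 to 1470 bp. The widest, chr7:81651304-81652773, was the widest of all 251 peaks at these genes, and 0.618% of all homecage peaks were at least as wide. It lay near the middle of the gene, 48.4% of the way along it, and no learning peak was called within 30782 bp of it. A homecage peak of 737 bp, chr7:81705854-81706590, began 335 bp past the first start site, and one of 271 bp lay 759 bp beyond the other end of the gene.

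Homer3 (chr8:70282880-70294361, plus strand), at 11.5 kb the shortest of the 8 genes, had 1 peak in each list. The learning peak, chr8:70278771-70279680, was 910 bp wide, and 2.47% of all learning peaks were at least as wide. It lay outside the gene, 3200 bp before its lower-coordinate end and 3319 bp before the listed start site, on no annotated gene. With gene bodies alone, Homer3 had no learning peak, and 5 of the 8 members were left with one, against 24.8% of all protein-coding genes. The 24.8% was not split by gene length. The single homecage peak, chr8:70283076-70283498, was 423 bp wide and began 77 bp after the start site. The 2 peaks were 3395 bp apart. The next homecage peaks were 9.51 kb below and 5.87 kb above the gene.

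Homecage peaks were found after the start sites of these genes at more sites than before them. The promoter table listed 11 start sites for 6 of the 8 genes (Dlg4, Dlgap1, Shank3 and the 3 Homer genes). A homecage peak lay in the 1 kb after 7 of the 11 start sites, against 40.2% of all start sites of protein-coding genes, and in the 1 kb before 2 of them, against 30.2%. By gene, 6 of 6 had a homecage peak in the 1 kb after at least 1 start site, against 42.0% of genes. A gene with more listed sites has more occasions to count, and these 6 genes had 11 sites, against 21263 sites for 17492 protein-coding genes. A learning peak lay in the 1 kb after 2 start sites, against 13.2% of all, and in the 1 kb before 1, against 6.81%. By gene, 1 of 6 had one after a start site, against 14.0%. All of these learning values came from the single Dlg4 peak, which was counted for 2 neighbouring start sites. Inside the promoter windows of 300 bases, a learning peak was found in 1 of 11, against 5.21% of all windows, and a homecage peak in 2 of 11, against 19.9%.

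At Dlgap1, Homer1, Homer2, Homer3 and Shank3 the homecage peaks therefore began past the promoter window, 77 to 721 bp after a start site. The same side was favoured over all protein-coding genes. A homecage peak covered the position 250 bp after 22.8% of start sites, compared with 12.1% at 250 bp before and 5.93% at 5000 bp before. The learning list gave 7.79%, 2.51% and 0.273% at the same positions. The placement at these genes was thus of the kind seen at start sites in general, and it was not tested whether their share differs from that of other genes.

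**Figure D2:**
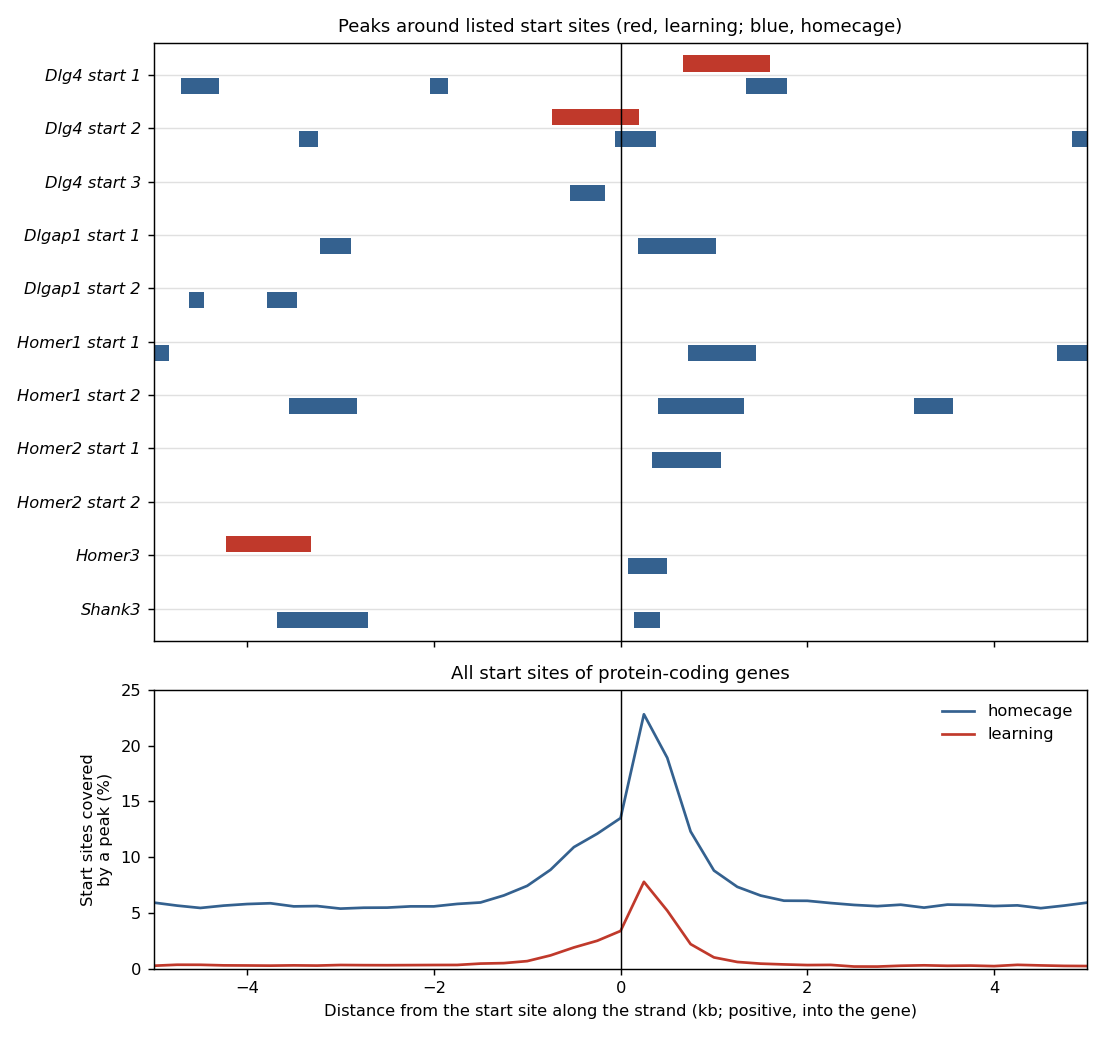
The upper panel shows the peaks within 5 kb of each of the 11 listed start sites (red, learning; blue, homecage), with distance along the strand in kb and positive values into the gene; the lower panel shows, for all 21263 start sites of protein-coding genes, the percentage covered by a peak of each list at each distance. A blue box begins within 1 kb after 6 of the start sites and 1 more covers the second Dlg4 start, whereas red boxes appear at Dlg4 and upstream of Homer3 only.

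Homecage peak widths at these genes were close to those of the whole list. The median of the learning peaks was higher than that of the learning list, but it rests on 9 peaks and has no interval. The 242 homecage peaks had a median width of 367 bp, against 351 bp over the whole list, and 63 of them were at least 500 bp wide (26.0%, 95% interval 20.6 to 32.0%), against 24.8% of the list. By gene, the homecage median ran from 332.5 bp at Dlgap1 to 463 bp at Homer2. The 9 learning peaks had widths of 192, 211, 215, 368, 435, 472, 498, 910 and 935 bp, with a median of 435 bp against 306 bp over the whole learning list, whose 75th percentile was 432 bp. The widest pair were those at Dlg4 and Homer3, and they were the 2 learning peaks of at least 500 bp (22.2%, 95% interval 2.81 to 60.0%), against 15.6% of the list.

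**Figure D3:**
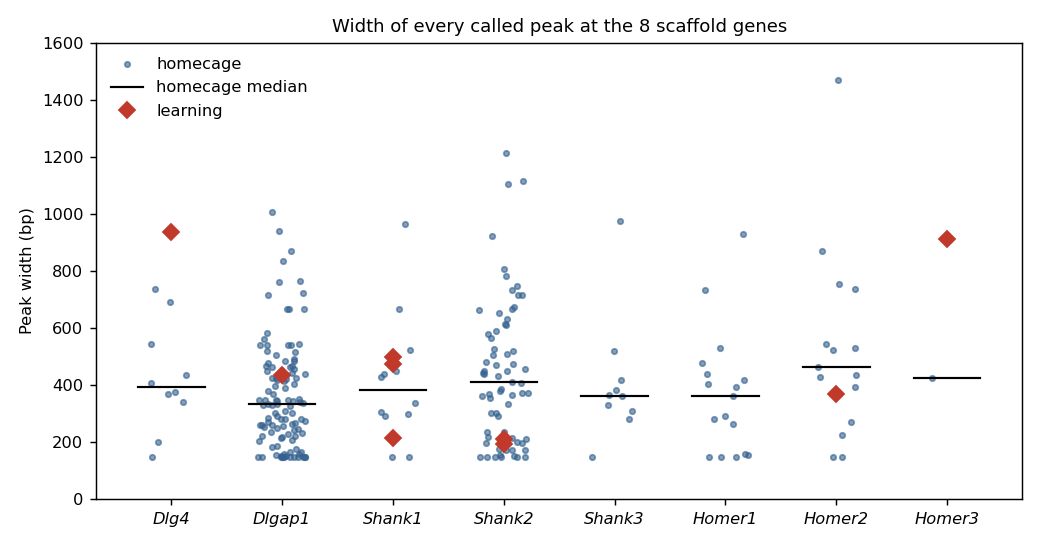
Width in bp of every peak at each gene (blue circles, homecage; red diamonds, learning; black bar, homecage median; the horizontal scatter has no meaning). The learning peaks at Dlg4 (935 bp) and Homer3 (910 bp) lie above every homecage peak of the same gene, and the other 7 lie within the homecage range of theirs.

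Peak density divided the count by the window length, which does not remove every effect of length. A learning peak covered the position 250 bp after 7.79% of all start sites of protein-coding genes, against 0.245% at 5000 bp after. A single learning peak gave 46.6 per Mb at Homer3 (window of 21.5 kb) and 1.16 at Dlgap1 (862 kb). How far window length set the order of the genes was not tested. Homecage peaks numbered 139 per Mb of the 8 windows (95% Poisson interval 122 to 157), against 137 per Mb over the windows of all protein-coding genes. In order, the homecage density was 261 per Mb at Dlg4, 196 at Shank1, 153 at Homer1, 146 at Shank2, 129 at Shank3 and at Homer2, 128 at Dlgap1 and 46.6 at Homer3. Each pair of neighbours in this order had overlapping intervals, and the intervals of the highest (125 to 480) and the lowest (1.18 to 259) overlapped as well. Of all protein-coding genes, 91.2% had a lower homecage density than Dlg4 and 12.0% a lower one than Homer3.

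Learning peaks numbered 5.15 per Mb of the 8 windows (2.36 to 9.78), against 8.54 per Mb over all protein-coding genes. This value rested on Dlgap1, which has about as long a window as the other 7 genes together: without it, over 0.884 Mb, the density was 9.05 per Mb (3.91 to 17.8). Shank1 had the highest learning density, 49.0 per Mb (10.1 to 143). Dlgap1 had the lowest of the genes with a peak, 1.16 per Mb (0.0294 to 6.46). These 2 intervals, picked as the extremes, did not overlap. Taken gene by gene, the median learning density of all protein-coding genes was 0. Of these genes, 69.2% had a lower learning density than Dlgap1 and 91.6% a lower one than Shank1. The windows held 26.9 homecage peaks per learning peak, or 16.5 without Dlgap1, against 20.7 over the whole lists and 16.0 over the windows of all protein-coding genes. The ratio was 1 at Homer3, 4 at Shank1, 10 at Dlg4, 15 at Homer2, 33.5 at Shank2 and 110 at Dlgap1.

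**Figure D4:**
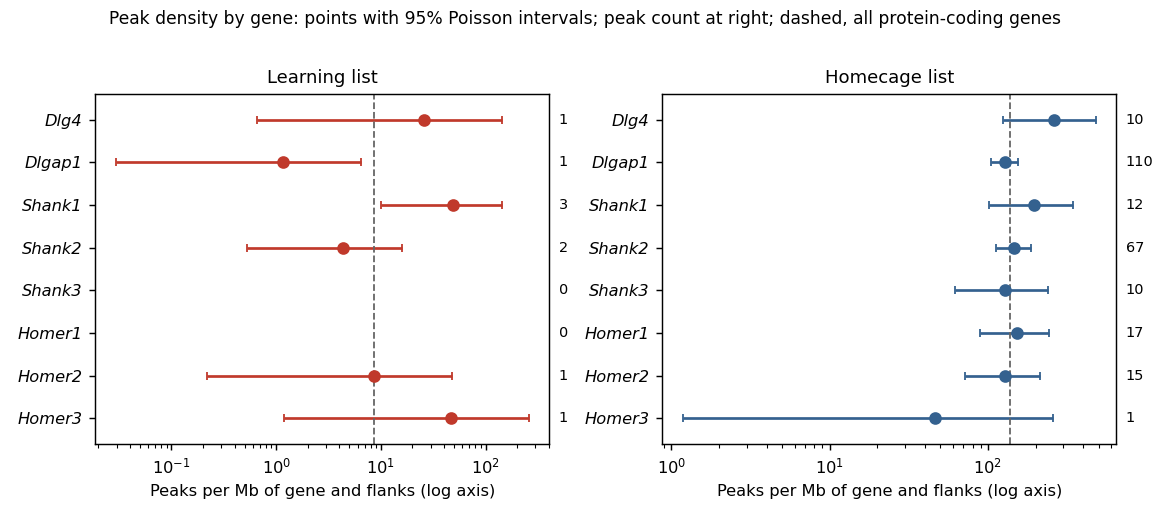
Peaks per Mb of gene body and flanks at each gene in the learning list (left) and the homecage list (right), on log axes, with 95% Poisson intervals that cover counting error only; the number of peaks is at the right of each panel and the dashed line is the value over all protein-coding genes. Shank1 (49.0 per Mb) lies above the learning line and Dlgap1 (1.16) below it by more than their intervals. The line pools all windows, and 69.2% of protein-coding genes had a lower learning density than Dlgap1. The homecage intervals of all 8 genes include the homecage line.

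A further 25 genes of the postsynaptic density, chosen by function, were read in the same way. Of these, 16 had a learning peak in the window (64.0%, 95% interval 42.5 to 82.0%), against 30.9% of all protein-coding genes. A homecage peak lay in 22 of the 25 windows, against 90.5%, and a learning peak that overlapped a homecage peak in 14, against 18.4%. Densities were 6.38 learning and 133 homecage peaks per Mb, against 8.54 and 137 over all protein-coding genes. These shares were not split by window length, and the Dlg2 window alone was 1983 kb long. They are therefore not to be read against the shares of all genes alone. The interval of the 64.0% included the 75% of the 8 scaffold genes. Among close relatives of Dlgap1, Dlgap3 had 2 learning peaks in a window of 78.7 kb and Dlgap4 2 in 161 kb, each with a homecage partner, and Dlgap2 had 6 in 768 kb, 1 of them with a partner. Among relatives of Dlg4, Dlg1 (SAP97) had 2 learning and 41 homecage peaks and Dlg2 (PSD-93) 8 and 268, while Dlg3 (SAP102), on chromosome X, had 0 and 1. The highest learning densities among those of the 25 genes with at least 2 such peaks were at Baiap2, an actin regulator bound by SHANK (3 peaks, 39.0 per Mb), Dlgap3 (25.4 per Mb) and Iqsec1, an exchange factor for the small GTPase ARF6 (6 peaks, 17.7 per Mb). Of the learning peaks, 1 at Baiap2 and 2 at Iqsec1 overlapped a homecage peak. No peak of either list was called at Akap5 on chromosome 12, or at Iqsec2 and Cnksr2 on chromosome X. With Dlg3, these last 2 were the 3 genes on chromosome X among the 25. Peak density over chromosome X was not computed, so their low counts are not to be read as particular to these genes.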

How the data were processed

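The authors deposited 1 list of broad peaks per ChIP library, each with 4 columns (chromosome, start, end, peak name), and the peak names state a p-value threshold of 0.01. Trimmomatic, BWA, MACS2 and the mm10 build are named in the submitters' processing notes, without versions or parameters; the use of the input libraries as control is not given in the sources used here. A longer list can come from deeper sequencing or a different control as well as from chromatin, and this cannot be told apart here. The 8 single-nucleus and 2 input libraries were not analysed here.

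Starts were converted to 1-based positions. Genes came from RefSeq GRCm38.p6 (the mm10 build), and start sites, strands and promoter sequences from the promoter table of the same build, which matched 6 of the 8 genes. Peaks on chromosomes 1 to 19, X and Y were counted in gene windows with an overlap of at least 1 bp. A peak can count for 2 overlapping windows. Shares have exact Clopper-Pearson and counts exact Poisson 95% intervals. The named genes were the 8 members, and of the 25 other genes the 3 with the highest learning density among those with at least 2 learning peaks, those without a homecage peak, and the relatives of Dlg4 and Dlgap1 (the last chosen after their values were seen). Every learning peak was named, and the homecage peaks that overlapped one, lay within 1 kb of a gene end or were the widest of a gene; others named near start sites, and the comparison with start sites and base composition, were chosen after the data were seen. That list was first written with 1 more gene, which was left out of all of its counts and is not reported here. Members and lists were chosen with earlier results of these data known. The overlap functions were tested on simulated lists. Python 3.11.15 was used with scipy 1.17.1 for intervals, pandas 2.3.3 and numpy 2.4.6 for the tables, and matplotlib 3.10.9.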

Additional observations from a re-analysis of the deposited data

How the results depend on the processing

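No paired analysis was possible because only 1 antibody library stood for each condition, which also meant that leaving out a replicate was not an option. Recomputation gave 26 values, of which 20 lay inside the counting interval (within 1.5 times for counts and ratios) and 6 moved. The 26 did not include the number of homecage peaks per learning peak without Dlgap1. That ratio was 16.5 against 26.9 with Dlgap1, a change beyond 1.5 times. With only peaks of at least 500 bp, 2 genes had a learning peak, 2 learning and 63 homecage peaks were left, and 0 learning peaks overlapped a homecage peak. Over all protein-coding genes, 7.25% then had a learning peak, a share not split by window length. Overlaps of at least 50% of the learning peak or of both peaks left 3 and 1 learning peaks shared. Gene bodies alone, flanks of 10 kb, peak centres and merging of peaks closer than 1 kb moved no count beyond 1.5 times. With 9 learning peaks and an unknown read depth, differences between single genes in the learning list were mostly within counting error.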
